A study of Homo sapiens with 5 samples.

Results

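RNA polymerase III makes transfer RNAs, the smallest ribosomal RNA and other short noncoding RNAs such as U6. The transfer RNA precursors are then trimmed at both ends, in some cases spliced, given a CCA tail, chemically modified and exported to the cytoplasm. The polymerase is recruited by TFIIIC and TFIIIB at transfer RNA genes and by the SNAP complex at U6-type genes, and MAF1 holds it in check. Described here are 44 genes of this machinery, chosen by symbol with earlier results of these data known. They encode polymerase subunits, its initiation factors, its repressor, the SNAP complex, the La protein and enzymes of transfer RNA processing, modification and export. All 44 were found among the 18257 gene symbols of the count table, and all 44 had at least 1 CPM (read counts scaled to a common library size) in at least 2 libraries, as did 12234 genes in all. The libraries hold poly(A) RNA, so these are the mRNAs that encode the machinery, and the transfer RNAs themselves were not analysed here.

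The samples were human HEK293 cells, an embryonic kidney line, of the strain given as T-Rex FLAG:DICER1 FLP-IN, so every group carried a tagged DICER1 insert. At the labelled 18 h there were 2 libraries with siRNAs against DICER1, the nuclease that cuts microRNA precursors, 2 with siRNAs against DROSHA, the nuclear nuclease acting one step earlier, and 1 mock-transfected control library. Within each pair the libraries differ in the siRNA used, and separate cultures are not stated, so the p-values reflect no more than library-to-library spread, which may be technical. The knockdowns were made to assess the regulatory effect of Dicer binding, with DROSHA knockdown and mock as controls. In bulk RNA, fewer cells expressing a gene and less RNA per cell cannot be told apart.

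Libraries held from 7620206 to 8736455 counts. DICER1 mRNA stood at 74.1 and 67.7 CPM in the DICER1 siRNA libraries, against 243.1 CPM in the mock, and DROSHA mRNA at 41.2 and 41.9 CPM in the DROSHA siRNA libraries, against 191.5 CPM in the mock. Each library matched its label in this respect. The labels do not say whether the tagged DICER1 insert was induced, and the DICER1 counts do not separate its mRNA from that of the native gene. All 7 genes known from HEK293 cells were detected in every library, VIM and NEFL most strongly. The lowest were NEFM, with 8 to 17 counts, PAX2, with 16 to 37, and LHX1, with 19 to 39. Of 9 matched markers of other cell types, 7 had at most 5 counts in any library, PTPRC and DCN were at 0 throughout, and HBB and COL1A1 had 169 to 215 and 42 to 58 counts. The summed level of these 9 ran from 33.8 to 34.7 CPM in the DICER1 libraries and from 27.5 to 30.2 CPM in the DROSHA libraries, and was 33.1 CPM in the mock. DROSHA siRNA 2 stood apart from the other 4 libraries, with a chi-square per degree of freedom over 11353 genes of 7.65 to 9.9 against each, while the other pairs of libraries lay between 2.7 and 6.03. For the machinery genes with the smallest p in a comparison with the DROSHA libraries, the log2 fold change is therefore also given without it. For the other pathway genes named at the end of these results, no such value is given.

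The mRNAs of the polymerase III machinery varied little between the libraries. Across the 5 libraries the coefficient of variation of the 44 genes had a median of 6.66%, where the 9041 tested genes in the same range of mean CPM, from 11.7 to 368.9, had a median of 7.50%. In 33 of the 44 genes the highest library was less than 1.25-fold above the lowest, a share of 75%, against 62.5% of those 9041 genes. The match is on the range of mean CPM alone, so the 2 sets may be spread differently within it. Whether that accounts for the gap was not tested. The steadiest was GTF3C1, a DNA-binding subunit of TFIIIC, with 367.0 and 365.2 CPM in the DICER1 libraries, 368.3 and 364.0 CPM in the DROSHA libraries and 380.2 CPM in the mock. The least steady was the repressor MAF1, with a coefficient of variation of 26.6%. For GTF3C1 the coefficient of variation of 1.77% was about the 1.82% that counting error alone gives, whereas for MAF1 counting error accounts for 3.41%.

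No gene of the 44 passed edgeR's quasi-likelihood test in any of the 3 comparisons (adjusted p under 0.05 over all 12234 genes). The test called 0.00817% of all genes in DICER1 against mock, 0.00817% in DROSHA against mock, with 0.0163% in DICER1 against DROSHA, which are the targeted enzymes themselves. DESeq2, the edgeR likelihood ratio test and limma voom called none of the 44 either. The median log2 fold change of the 44 genes was -0.006 in DICER1 against mock, -0.021 in DROSHA against mock, with -0.029 in DICER1 against DROSHA, beside medians of 0.001, -0.005 and 0.004 over all tested genes. The 95% intervals, not adjusted for the number of genes, lay wholly within 1.5-fold of no change for 37 of the 44 genes in DICER1 against mock, for 38 in DROSHA against mock, with 41 in DICER1 against DROSHA. Within 2-fold they lay for 43 of the 44 in each comparison, with MAF1 the exception each time.

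**Figure D1:**
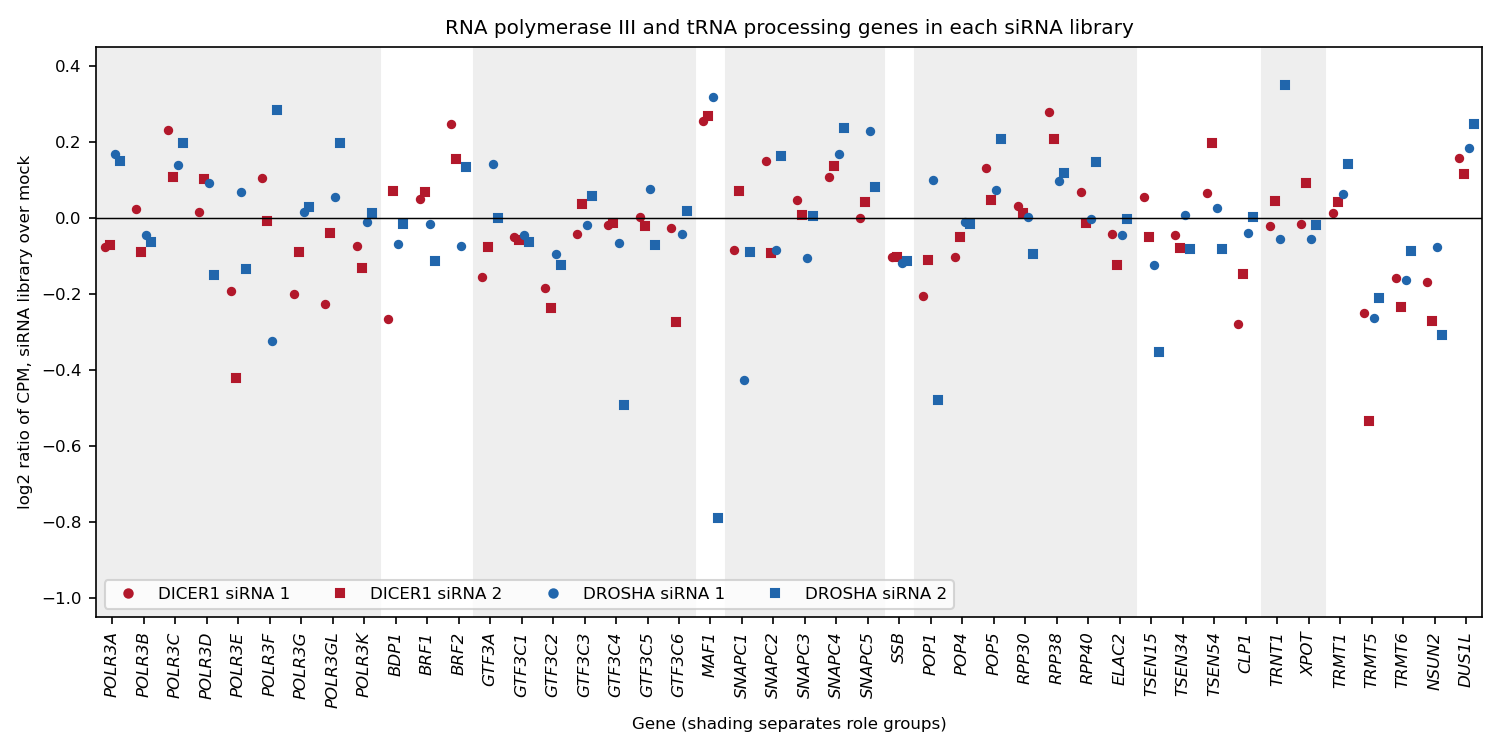
Each point is the log2 ratio of a gene's CPM in 1 siRNA library to its CPM in the mock (y axis), for the 44 genes in order of role (x axis). Red marks DICER1 and blue DROSHA, with circles for siRNA 1 and squares for siRNA 2. Most points lie close to 0, while MAF1 in DROSHA siRNA 2 lies at -0.79 and TRMT5 in DICER1 siRNA 2 at -0.53.

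Among the polymerase subunits the widest gaps between DICER1 and DROSHA siRNA were those of POLR3E, POLR3GL and the largest subunit POLR3A, and none passed the test. Both DICER1 libraries lay below both DROSHA libraries for 5 of the 9 subunits (POLR3A, POLR3E, POLR3G, POLR3GL and POLR3K), and above them for none. Of all tested genes 20% were lower and 20.9% higher in that sense, and over the 44 genes the counts were 13 lower and 11 higher. Without DROSHA siRNA 2 the same 5 subunits were lower and POLR3F was higher, beside 36.3% and 36.2% of all genes tested, an alternative chosen after the values were seen. This grouping by subunit was read with the values known and carries no test.

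POLR3A, which forms the catalytic centre with POLR3B, stood at 152.1 and 152.6 CPM in the DICER1 libraries, against 180.1 and 177.8 CPM in the DROSHA libraries, with the mock between them at 160.4 CPM. The 2 libraries of each pair nearly coincided and the pairs did not overlap. The log2 fold change in DICER1 against DROSHA was -0.23 ± 0.07 (SE, n = 2 each), and edgeR gave an unadjusted p of 0.0117 that became 0.499 after adjustment. Leaving out DROSHA siRNA 2 gave -0.24 (edgeR adjusted p = 0.316). Against the mock the log2 fold change was -0.07 ± 0.08 with DICER1 siRNA and 0.16 ± 0.08 with DROSHA siRNA (edgeR adjusted p = 0.943 and 0.978), the second being 0.17 without DROSHA siRNA 2. POLR3B stood at 53.8 and 49.7 CPM in the DICER1 libraries, 51.3 and 50.6 CPM in the DROSHA libraries and 52.9 CPM in the mock, so the mRNAs of these catalytic partners did not show the same order.

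POLR3E, which pairs with POLR3D in a module attached to the core, stood at 105.2 and 89.8 CPM in the DICER1 libraries, 126.1 and 109.6 CPM in the DROSHA libraries and 120.2 CPM in the mock. The DICER1 libraries were the lowest of the 5, though the gap between DICER1 siRNA 1 and DROSHA siRNA 2 was small. In edgeR the log2 fold change was -0.27 ± 0.11 against DROSHA (adjusted p = 0.590) and -0.30 ± 0.14 against the mock (adjusted p = 0.869). With 1 library left out the value against DROSHA ran from -0.40 (without DICER1 siRNA 1) to -0.16 (without DICER1 siRNA 2), and was -0.17 without DROSHA siRNA 1 and -0.37 without DROSHA siRNA 2. Against the mock it was -0.42 without DICER1 siRNA 1 and -0.19 without DICER1 siRNA 2. Its partner POLR3D had 78.9 and 83.7 CPM in the DICER1 libraries, 83.1 and 70.2 CPM in the DROSHA libraries and 78.0 CPM in the mock.

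The promoters of POLR3A, POLR3E and TRMT5 are printed because these genes had the smallest p in DICER1 against DROSHA (POLR3A, POLR3E) or in DICER1 against mock (TRMT5). They are RefSeq sequences on GRCh38.p14, each running from 250 bases before to 50 bases after the annotated start, at chr10:78029466-78029765 (minus strand), chr16:22297159-22297458 (plus strand) and chr14:60981641-60981940 (minus strand), on the gene's strand. The gene counts were made on hg19, and no position is carried between the builds. Capitals mark matches, on either strand, to the E-box CACGTG, to the ETS motif CCGGAAG, or to GGTTCGA, the core of the B box, the internal promoter element that TFIIIC recognises in transfer RNA genes.
POLR3A: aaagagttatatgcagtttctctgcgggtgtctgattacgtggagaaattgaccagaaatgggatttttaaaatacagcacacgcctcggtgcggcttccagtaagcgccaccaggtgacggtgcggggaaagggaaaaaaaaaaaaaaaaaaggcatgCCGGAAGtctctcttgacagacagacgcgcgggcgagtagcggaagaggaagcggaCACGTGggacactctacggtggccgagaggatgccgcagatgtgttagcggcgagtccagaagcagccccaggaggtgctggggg
POLR3E: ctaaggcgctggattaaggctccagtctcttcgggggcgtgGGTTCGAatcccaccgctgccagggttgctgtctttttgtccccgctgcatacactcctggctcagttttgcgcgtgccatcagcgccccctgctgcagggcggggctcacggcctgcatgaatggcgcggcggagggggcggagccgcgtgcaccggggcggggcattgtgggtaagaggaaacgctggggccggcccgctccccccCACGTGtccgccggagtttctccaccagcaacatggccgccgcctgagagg
TRMT5: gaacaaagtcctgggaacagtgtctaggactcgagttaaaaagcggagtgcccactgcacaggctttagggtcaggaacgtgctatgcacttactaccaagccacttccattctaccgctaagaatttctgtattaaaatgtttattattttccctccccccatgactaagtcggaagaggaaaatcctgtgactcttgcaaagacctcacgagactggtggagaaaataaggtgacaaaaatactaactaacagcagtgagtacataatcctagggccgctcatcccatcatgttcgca

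POLR3A holds an ETS match whose first base lies at -91 from the annotated start and an E-box at -35, and POLR3E holds an E-box across its start. Farther upstream, at -209, POLR3E holds a B box core, a motif searched for only after this sequence had been read. Of the 35 genes of the list with a promoter in the table, POLR3E and GTF3C1 held that core, or 5.71%. Of 35116 promoters in all, 302 held it, or 0.86%. Because the POLR3E match prompted the search, it was certain to be counted, so these shares cannot be compared. Whether the POLR3E match lies in a transfer RNA gene was not looked up. The E-box was in 6 of the 35, or 17.1%, and in 7.26% of all promoters, and CCGGAAG was in 13, or 37.1%, and in 10.3% of all. The NRF1 core GCATGCG was in 5 of the 35, or 14.3%, and in 3.91% of all promoters, and the TATA box TATAAA in 1, or 2.86%, and in 11.5% of all. All 35116 promoters were counted without regard to expression, whereas every gene of the list had at least 1 CPM in at least 2 libraries. Whether expressed genes in general hold these motifs as often was not tested. None of these 5 motifs contains another. The printed TRMT5 window holds none of them, and no match was tested for binding.

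POLR3G and its paralog POLR3GL take the same place in the initiation module of the polymerase, which also holds POLR3C and POLR3F. POLR3G had 30.2 and 32.6 CPM in the DICER1 libraries, 35.1 and 35.4 CPM in the DROSHA libraries and 34.7 CPM in the mock. POLR3GL had 13.2 and 15.0 CPM in the DICER1 libraries, 16.1 and 17.7 CPM in the DROSHA libraries and 15.5 CPM in the mock. In both genes the DICER1 libraries were the lowest, at log2 fold changes against DROSHA of -0.17 ± 0.10 and -0.25 ± 0.14 (edgeR adjusted p = 0.694 and 0.670), and POLR3GL stood at -0.18 without DROSHA siRNA 2. Per kilobase of exon the order of the paralogs turned, with 9.78 CPM per kb for POLR3G and 13.3 CPM per kb for POLR3GL in the mock, on merged exon lengths of 3552 and 1165 bases in GENCODE 29. This order depends on those lengths, which may differ from the exons that were counted.

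Of the remaining subunits POLR3F split the DROSHA pair. POLR3C had 75.4 and 69.2 CPM in the DICER1 libraries, 70.7 and 73.7 CPM in the DROSHA libraries and 64.2 CPM in the mock, which was thus the lowest of the 5, with a log2 fold change of 0.17 ± 0.11 against the mock in either knockdown (edgeR adjusted p = 0.882 with DICER1 siRNA and 0.978 with DROSHA siRNA), and of 0.14 with DROSHA siRNA once siRNA 2 was left out. These 2 comparisons share the mock. POLR3F had 69.1 and 63.9 CPM in the DICER1 libraries and 64.2 CPM in the mock, while its DROSHA libraries stood at 51.3 and 78.1 CPM, one below and one above all others. POLR3K, a small subunit with a role in termination, had 123.6 and 118.8 CPM in the DICER1 libraries, 129.2 and 131.3 CPM in the DROSHA libraries and 130.1 CPM in the mock. Per kilobase of exon POLR3K was the highest of the 9 subunits in the mock, at 93.5 CPM per kb, and POLR3G the lowest.

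**Figure D2:**
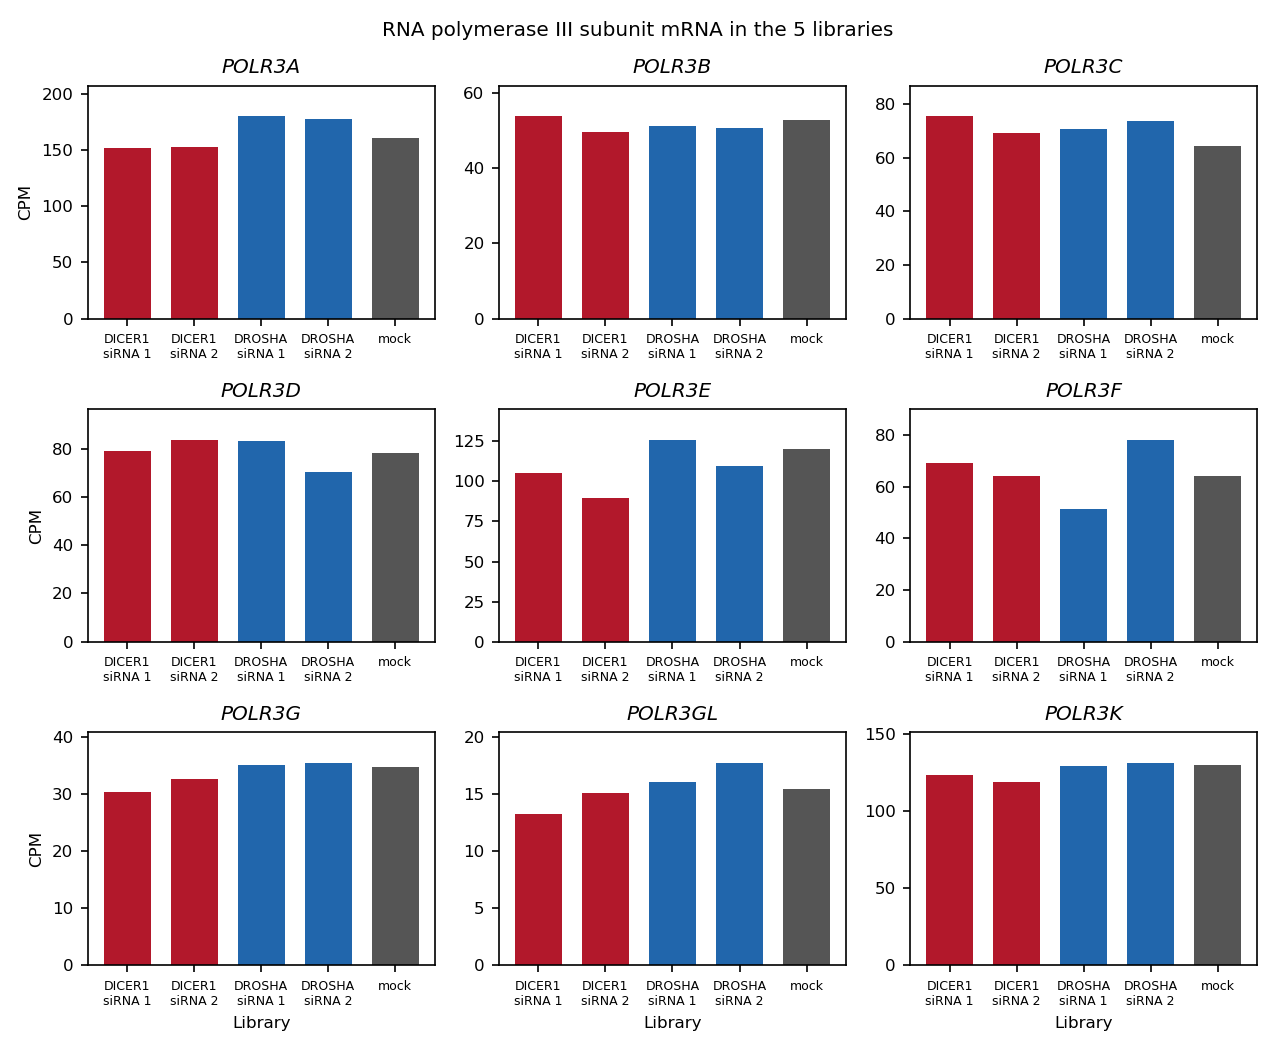
Bars give CPM (y axis, from 0) of the 9 polymerase III subunits in each of the 5 libraries (x axis), red for DICER1 siRNA, blue for DROSHA siRNA and grey for the mock, with a separate scale per gene and no error bars because each bar is 1 library. POLR3A stands at 152.1 and 152.6 CPM in the DICER1 libraries, below 180.1 and 177.8 CPM in the DROSHA libraries, and POLR3F splits the DROSHA pair.

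TFIIIB, which places the polymerase at the start site, showed small values in both directions. BRF2, the form used at U6-type promoters, had 18.2 and 17.1 CPM in the DICER1 libraries, 14.6 and 16.8 CPM in the DROSHA libraries and 15.3 CPM in the mock, a log2 fold change of 0.20 ± 0.17 in DICER1 against mock (edgeR adjusted p = 0.915). BRF1, the form used at transfer RNA genes, lay at 66.1 and 67.0 CPM in the DICER1 libraries, 63.1 and 59.0 CPM in the DROSHA libraries and 63.9 CPM in the mock. BDP1 split the DICER1 pair, with 137.7 and 173.9 CPM, against 158.1 and 163.9 CPM with DROSHA siRNA and 165.7 CPM in the mock.

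The 6 TFIIIC subunits and TFIIIA, which bind inside polymerase III genes, had their lowest log2 fold change in DICER1 against mock in GTF3C2. Both DICER1 libraries lay below the mock for 5 of these 7 genes and above it for none. Among all tested genes 36.4% were lower and 36.7% higher in that sense, and among the 44 genes 19 were lower and 13 higher. This count was read with the values known, rests on the single mock library and carries no test. The log2 fold changes of the 5 ran from -0.21 in GTF3C2 to -0.02 in GTF3C4. GTF3C2 had 89.5 and 86.3 CPM in the DICER1 libraries and 95.3 and 93.3 CPM in the DROSHA libraries, against 101.7 CPM in the mock, with a log2 fold change of -0.21 ± 0.10 in DICER1 against mock (edgeR adjusted p = 0.870). GTF3A, the TFIIIA gene, had 80.4 and 84.8 CPM in the DICER1 libraries, against 98.6 and 89.5 CPM in the DROSHA libraries, with the mock at 89.4 CPM, a log2 fold change of -0.19 ± 0.09 against DROSHA (edgeR adjusted p = 0.621), which was -0.12 without DROSHA siRNA 1 and -0.26 without DROSHA siRNA 2. GTF3C6, the smallest subunit, was lowest in DICER1 siRNA 2, at 52.7 CPM, with 62.6 CPM in DICER1 siRNA 1, 61.9 and 64.5 CPM in the DROSHA libraries and 63.7 CPM in the mock. GTF3C3 and GTF3C5 varied by 2.85% and 3.67% across the libraries.

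GTF3C4 and MAF1 were lower in DROSHA siRNA 2 than in every other library. GTF3C4, a TFIIIC subunit with acetyltransferase activity, stood at 228.9 and 170.3 CPM in DROSHA siRNA 1 and 2, while both DICER1 libraries, at 236.3 and 237.5 CPM, lay close to the mock at 239.5 CPM. MAF1 stood at 124.9 and 57.9 CPM in DROSHA siRNA 1 and 2, at 119.5 and 120.6 CPM in the DICER1 libraries and at 100.1 CPM in the mock. So 3 siRNA libraries were above the mock for MAF1 and the other one far below it. In edgeR the MAF1 log2 fold changes were 0.26 ± 0.38 in DICER1 against mock, -0.13 ± 0.37 in DROSHA against mock, with 0.39 ± 0.31 in DICER1 against DROSHA (adjusted p = 0.951, 0.995 and 0.758). The MAF1 value in DROSHA against mock depends on which siRNA is counted: it was -0.79 without siRNA 1 and 0.32 without siRNA 2. In DICER1 against DROSHA the MAF1 value was 1.05 without DROSHA siRNA 1 and -0.06 without DROSHA siRNA 2. GTF3C4 moved too: without DROSHA siRNA 1 it stood at -0.49 against the mock and 0.48 in DICER1 against DROSHA. With all libraries these values were -0.26 ± 0.16 and 0.25 ± 0.13 (edgeR adjusted p = 0.978 and 0.655). Without DROSHA siRNA 2 GTF3C4 stood at -0.07 against the mock and at 0.05 in DICER1 against DROSHA. Leaving out a library leaves 1 DROSHA library, whose spread is assumed to be that of the DICER1 pair, so only sizes are given here.

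Within the DROSHA pair, 6 of the 44 genes differed by 1.25-fold or more between the siRNAs, beside 13.3% of 9189 genes in the same range of mean CPM, so 13.6% of the list is near the background. MAF1 was 2.16-fold higher with siRNA 1 than with siRNA 2, with a 95% interval of 1.93 to 2.41 that covers counting error only. The RNase P subunit POP1 was 1.5-fold higher with siRNA 1 and GTF3C4 1.34-fold higher. POLR3F, TRNT1 and SNAPC1 were lower with siRNA 1, at ratios of 0.657, 0.755 and 0.793, the last with an interval of 0.581 to 1.08. Within the DICER1 pair BDP1 alone passed 1.25-fold, at a ratio of 0.792, or 2.27% of the list beside 5.33% of 8982 genes. Each such ratio sets 1 library against 1 and has no replicate check.

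**Figure D3:**
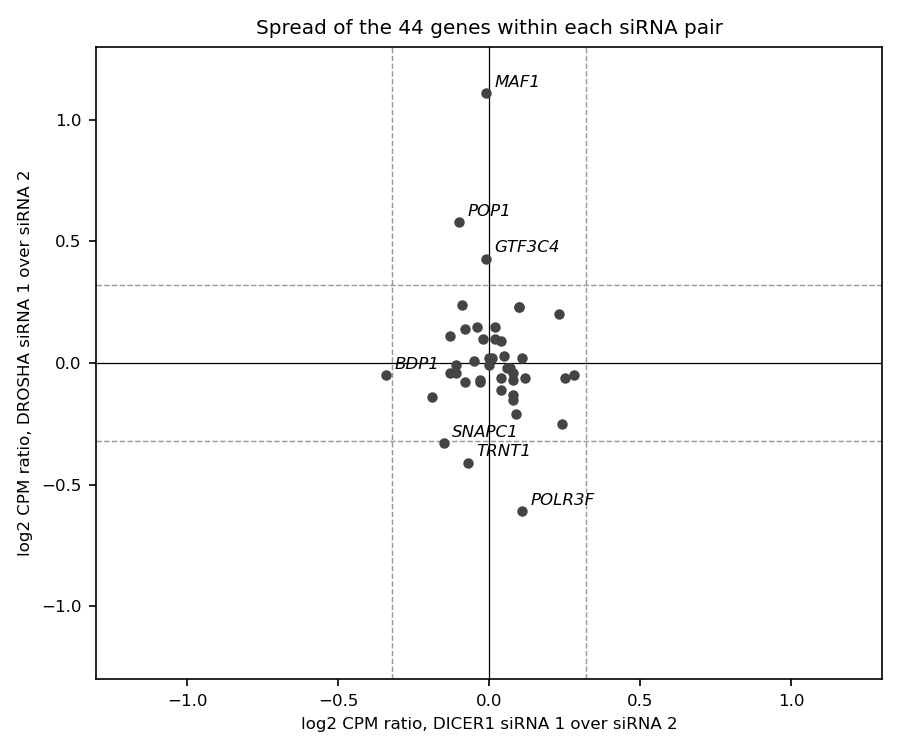
Each of the 44 points is a gene, placed by the log2 ratio of CPM in siRNA 1 to siRNA 2 for the DICER1 pair (x axis) and for the DROSHA pair (y axis), with dashed lines at 1.25-fold. The points spread more along the DROSHA axis, where MAF1 reaches 1.11, POP1 0.58 and POLR3F -0.61, and only BDP1 passes the line on the DICER1 axis.

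The SNAP complex binds the promoters of U6-type and other small nuclear RNA genes, and SNAPC4, its DNA-binding subunit, had the smallest p of its 5 genes in DROSHA against mock. SNAPC4 had 93.7 and 95.5 CPM in the DICER1 libraries and 97.7 and 102.4 CPM in the DROSHA libraries, against 86.9 CPM in the mock, the lowest of the 5. Its log2 fold change in DROSHA against mock was 0.20 ± 0.10 (edgeR adjusted p = 0.978), and 0.17 without DROSHA siRNA 2. SNAPC5 had 27.2 and 28.03 CPM in the DICER1 libraries, 31.9 and 28.8 CPM in the DROSHA libraries and 27.2 CPM in the mock. SNAPC1, the least abundant of the 44 genes per kilobase, had 11.8 and 13.1 CPM in the DICER1 libraries, 9.30 and 11.7 CPM in the DROSHA libraries and 12.5 CPM in the mock, on at most 109 counts a library. SNAPC2 and SNAPC3 had log2 fold changes between -0.05 and 0.08 in the 3 comparisons.

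SSB, the La protein that binds and protects the uridine-rich ends of new polymerase III transcripts, had nearly the same level in all 4 siRNA libraries and a higher one in the mock. It stood at 195.4 and 195.5 CPM in the DICER1 libraries and at 193.3 and 194.3 CPM in the DROSHA libraries, against 210.0 CPM in the mock. The log2 fold changes against the mock were -0.10 ± 0.08 for DICER1 and -0.12 ± 0.08 for DROSHA (edgeR adjusted p = 0.907 and 0.978). Both rest on the same single mock library.

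None of the end-trimming genes passed the test. POP1, POP4, POP5, RPP30, RPP38 and RPP40 are protein subunits of RNase P, which removes the leader of transfer RNA precursors, and ELAC2 is the RNase Z that removes the trailer. Both DICER1 libraries lay above the mock for 3 of the 7 and below it for 3, near the 36.7% and 36.4% of all tested genes. RPP38 had 21.3 and 20.3 CPM in the DICER1 libraries and 18.8 and 19.1 CPM in the DROSHA libraries, against 17.6 CPM in the mock, at 0.24 ± 0.15 on the log2 scale in DICER1 against mock (edgeR adjusted p = 0.870). POP1 had 54.8 and 58.6 CPM in the DICER1 libraries, 67.8 and 45.4 CPM in the DROSHA libraries and 63.3 CPM in the mock. POP5 was lowest in the mock, at 54.1 CPM, with 59.3 and 55.9 CPM in the DICER1 libraries and 56.9 and 62.5 CPM in the DROSHA libraries. ELAC2 had 252.1 and 238.4 CPM in the DICER1 libraries, 251.8 and 259.3 CPM in the DROSHA libraries and 259.6 CPM in the mock. POP4, RPP30 and RPP40 varied by 2.87%, 3.37% and 4.82% across the 5 libraries.

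Among the splicing genes, TSEN15, TSEN34 and TSEN54 encode subunits of the endonuclease that cuts out transfer RNA introns, and CLP1 is an RNA kinase associated with it. TSEN15 had 55.1 and 51.3 CPM in the DICER1 libraries, against 48.7 and 41.6 CPM in the DROSHA libraries, with 53.0 CPM in the mock. The pairs did not overlap, at a log2 fold change of 0.23 ± 0.11 in DICER1 against DROSHA (edgeR adjusted p = 0.621), and of -0.23 ± 0.14 in DROSHA against mock (adjusted p = 0.978). The first was 0.35 without DROSHA siRNA 1 and 0.13 without DROSHA siRNA 2, and the second -0.35 and -0.12. TSEN54 lay the same way, at 0.16 ± 0.09 (adjusted p = 0.683 in edgeR), or 0.09 without DICER1 siRNA 2 and 0.11 without DROSHA siRNA 2, with 74.2 and 81.2 CPM in the DICER1 libraries, 72.2 and 66.9 CPM in the DROSHA libraries and 70.9 CPM in the mock. CLP1 lay the other way, with 28.1 and 30.8 CPM in the DICER1 libraries, 33.2 and 34.2 CPM in the DROSHA libraries and 34.1 CPM in the mock, a log2 fold change of -0.19 ± 0.11 against DROSHA and -0.21 ± 0.13 against the mock (edgeR adjusted p = 0.671 and 0.872), and -0.17 against DROSHA without DROSHA siRNA 2. TSEN34 varied by 2.94% across the 5 libraries.

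TRNT1 adds the CCA tail and XPOT carries mature transfer RNAs out of the nucleus. TRNT1 stood at 41.4 and 43.3 CPM in the DICER1 libraries, 40.4 and 53.5 CPM in the DROSHA libraries and 42.0 CPM in the mock, so only DROSHA siRNA 2 lay apart. XPOT had 363.7 and 392.2 CPM in the DICER1 libraries, 353.9 and 363.1 CPM in the DROSHA libraries and 368.1 CPM in the mock. Its log2 fold changes lay between -0.04 and 0.08.

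**Figure D4:**
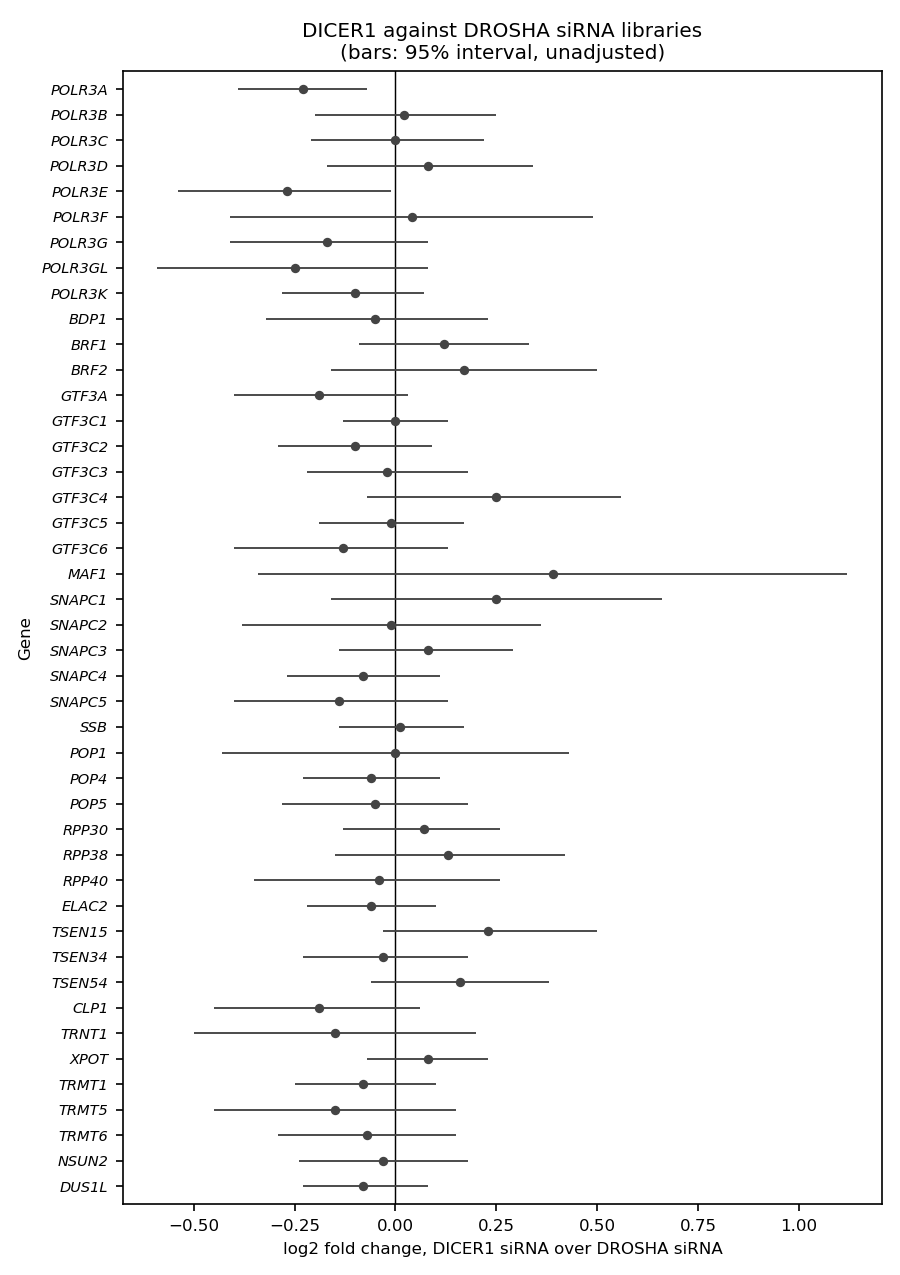
Points give the edgeR log2 fold change of each of the 44 genes in DICER1 against DROSHA siRNA libraries (x axis, 2 libraries against 2), with bars for the unadjusted 95% interval and genes down the y axis by role. The intervals of POLR3A, from -0.39 to -0.07, and POLR3E, from -0.54 to -0.01, leave out 0, and that of MAF1 is the widest, from -0.34 to 1.12.

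Of the 5 modification genes, TRMT5 had the smallest p of all 44 in DICER1 against mock and DUS1L in DROSHA against mock. TRMT5, which methylates the guanosine beside the anticodon, had 35.6 and 29.2 CPM in the DICER1 libraries and 35.2 and 36.6 CPM in the DROSHA libraries, against 42.3 CPM in the mock. All 4 siRNA libraries lay below the mock. The log2 fold changes were -0.39 ± 0.15 in DICER1 against mock and -0.24 ± 0.15 in DROSHA against mock (edgeR adjusted p = 0.865 and 0.978), the second being -0.26 without DROSHA siRNA 2. TRMT5 alone of the 44 had an unadjusted p under 0.05 in DICER1 against mock, at 0.0373. In all tested genes 2.98% passed that mark downward and 2.48% upward, and 1 of 44 genes is 2.27%. Without DICER1 siRNA 1 the log2 fold change of TRMT5 against the mock was -0.54, and without DICER1 siRNA 2 it was -0.25.

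In the mock, though not in every library, NSUN2, a cytosine methyltransferase, was the most abundant of the 44 genes per kilobase, at 120.2 CPM per kb. It had 352.9 and 328.7 CPM in the DICER1 libraries and 376.6 and 320.4 CPM in the DROSHA libraries, against 397.0 CPM in the mock, with log2 fold changes of -0.22 ± 0.11 in DICER1 against mock and -0.19 ± 0.11 in DROSHA against mock (edgeR adjusted p = 0.870 and 0.978). The DROSHA value was -0.31 without siRNA 1 and -0.08 without siRNA 2. TRMT6, a subunit of the adenosine methyltransferase, had 57.5 and 54.5 CPM in the DICER1 libraries and 57.3 and 60.3 CPM in the DROSHA libraries, against 64.1 CPM in the mock, a log2 fold change of -0.20 ± 0.11 in DICER1 against mock (edgeR adjusted p = 0.870). DUS1L, a dihydrouridine synthase, was the reverse, with 232.5 and 225.7 CPM in the DICER1 libraries and 236.5 and 247.1 CPM in the DROSHA libraries, against 208.2 CPM in the mock. Its log2 fold changes were 0.14 ± 0.08 in DICER1 against mock and 0.22 ± 0.08 in DROSHA against mock (edgeR adjusted p = 0.870 and 0.978), the second being 0.18 without DROSHA siRNA 2. TRMT1, a guanosine methyltransferase, had 143.2 and 146.2 CPM in the DICER1 libraries, 148.3 and 156.8 CPM in the DROSHA libraries and 142.0 CPM in the mock. Since the mock is 1 library, a low or high mock value cannot be told apart from an effect common to the siRNA transfections in any of these genes.

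In DROSHA against mock, both DROSHA libraries lay below the mock for 15 of the 44 genes and above it for 11, beside 32.5% and 31.5% of all tested genes. DUS1L alone had an unadjusted p under 0.05, at 0.0333, where 2.07% of all genes passed upward and 1.62% downward. In DICER1 against DROSHA, POLR3A and POLR3E had one, both downward, beside 4.32% of all genes downward and 4.02% upward. These counts move with single libraries: with 1 left out they ran from 0 to 2 downward in DICER1 against mock, from 1 to 5 downward and 2 to 4 upward in DROSHA against mock, and from 0 to 4 in either direction in DICER1 against DROSHA.

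Another 82 tested genes of the same pathways, from a list of transfer RNA modification, ligation and shared polymerase genes, were likewise without a call in edgeR's quasi-likelihood test. At an unadjusted p under 0.05, 1 was higher and 1 lower in DICER1 against mock, beside 2.48% and 2.98% of all tested genes. In DROSHA against mock 2 were higher and 3 lower, beside 2.07% and 1.62%. DICER1 against DROSHA had 2 higher and 2 lower, beside 4.02% and 4.32%. The smallest edgeR adjusted p among the 82 genes was 0.865, 0.978 and 0.488 in these comparisons. Their values are not given without DROSHA siRNA 2. FAM98B, a component of the transfer RNA ligase complex, had a log2 fold change of -0.55 ± 0.12 in DICER1 against mock and -0.34 ± 0.12 in DROSHA against mock (edgeR adjusted p = 0.865 and 0.978). THG1L, which adds a guanosine to histidine transfer RNA, stood at 0.32 ± 0.12 in DICER1 against mock, the cytosine methyltransferase TRDMT1 at -0.45 ± 0.19 and the queuine enzyme QTRT1 at 0.26 ± 0.11. In DROSHA against mock THG1L stood at 0.12 ± 0.12, TRDMT1 at -0.35 ± 0.19 and QTRT1 at 0.28 ± 0.11. Both comparisons share the single mock library. CDKAL1, which modifies lysine transfer RNA, stood at -0.57 ± 0.18 with DROSHA siRNA set against the mock, while DICER1 against DROSHA gave 0.54 ± 0.15 (edgeR adjusted p = 0.978 and 0.488). TYW3, of wybutosine synthesis, had -0.26 ± 0.10 and PUSL1, a pseudouridine synthase-like gene, 0.26 ± 0.11 in DROSHA against mock. With DICER1 siRNA set against the same mock, TYW3 had -0.17 ± 0.10 and PUSL1 0.22 ± 0.11. In DICER1 against DROSHA, XPO5, the exporter of microRNA precursors, stood at 0.21 ± 0.07, FAM98A at -0.26 ± 0.09 and THUMPD1, which assists transfer RNA acetylation, at -0.25 ± 0.09.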

How the data were processed

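Poly(A) RNA of 5 HEK293 transfections was sequenced after TRIZOL extraction and TruSeq preparation, per the labels. The authors deposited raw read counts, 1 table for all libraries with a row per symbol. The submitters' processing notes name CASAVA 1.8.2, STAR, HTSeq, edgeR and hg19, without roles or order. Strand setting and annotation release are not given in the sources used here. Reads of overlapping genes therefore cannot be told apart. Column names gave the samples, and 0 columns stayed unused.

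Genes reaching 1 CPM in 2 or more libraries were kept (12234, with 99.9% of reads). Tests were quasi-likelihood F tests in edgeR 4.0.16 (R 4.3.3) after TMM scaling, in 1 fit of all 5 libraries on group alone, with Benjamini-Hochberg adjustment over all genes kept. Only the siRNA pairs inform the spread, leaving 2 residual degrees of freedom. CPM are scaled by reads in kept genes and the TMM factor. Standard errors are the log2 fold change over the square root of F. Exon lengths are merged GENCODE 29 basic exons and may differ from the exons counted, so every order per kilobase depends on them. The chi-square between libraries used genes with 100 or more counts in all. Alternatives used DESeq2 1.42.0 and limma 3.58.1, other scalings and filters, and each siRNA library left out; the tests were checked on simulated data.

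The 44 genes and both gene lists were chosen with earlier results of these data known. The 8 of the 44 genes, and the 4 other pathway genes, with the smallest p in each comparison were named with their statistics. MAF1 and the genes that differed within a pair were added after their values were seen. Longer forms of the B box and NRF1 motifs were searched first and replaced by the cores after their counts were seen.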

Additional observations from a re-analysis of the deposited data

How the results depend on the processing

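None of the 44 genes passed under another scaling, filter or test in any comparison, and the followed genes (the 8 with the smallest p in each comparison, and MAF1) kept their direction there; up to 4 of the 44 changed sign in a comparison, none above 0.02 in size. With 1 library left out, the log2 fold change of MAF1 ran from -0.79 to 0.32 in DROSHA against mock. In DICER1 against DROSHA it ran from -0.06 to 1.05. That of GTF3C4 ran from -0.49 to -0.07 and from 0.05 to 0.48 in the same comparisons. Calls over all genes, 1, 1 and 2 with the fit as reported, were 3 and 12 with every gene that had a read (DICER1 against mock and against DROSHA), 5 and 24 with DESeq2, 29 and 130 with the likelihood ratio test (3 with DROSHA siRNA set against the mock). With limma voom DICER1 against mock had 0. With 1 library left out they ran from 0 to 0, 20 to 233 and 1 to 462. The cause was not tested. The median log2 fold change of the 44 genes was 0.013 and -0.005 against the mock (DICER1, then DROSHA) with no TMM factor, and -0.011 and -0.026 with every gene that had a read. With 1 library left out it ran from -0.021 to -0.019 in DICER1 against mock, from -0.014 to -0.011 in DROSHA against mock, with -0.061 to -0.009 for DICER1 against DROSHA. The labels use the siRNA numbers to name the siRNAs and state no pairing of samples. The differences within the pairs correlate at 0.0246 across genes. Whether libraries of the same number were handled together was not tested. With the number as a replicate block DICER1 against DROSHA had 3 genes called, none of the 44, and a median of -0.028. Depth limits the least abundant genes, such as SNAPC1 and BRF2, most.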
